A study of Rattus norvegicus with 12 samples.

Results

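Plekhb1 (pleckstrin homology domain containing B1, also called evectin-1) was followed as a single gene, 1 of 17337 in the deposited count table, through whole blood RNA of 2 inbred rat strains. It was chosen because its counts were low in Wistar Kyoto (WKY) blood and high in blood of the Fischer strain F344, so its strain difference is given as a description, with no test. All rats were adult males from a commercial breeder, 70 to 90 days old at the first test. Every group went through contextual fear conditioning, in which a chamber is learned as a signal of shock, then 4 weeks in the home cage, 2 weeks with or without restraint, and a further round of fear conditioning. Blood was taken at decapitation 24 hours later. The 4 groups, of 3 libraries each, were WKY after chronic restraint stress (CRS), WKY without stress (NS), F344 after CRS and F344 NS. Restraint took 2 hours a day in decapicone bags, while NS rats stayed undisturbed. Nothing in the labels ties each library to a rat of its own, and the p-values therefore rest on a spread among libraries that may in part be technical. The series compared the strains' response to restraint in fear memory and in blood transcripts, and the labels give no fear score for any library.

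Plekhb1 encodes a small membrane protein with a pleckstrin homology domain, a fold that binds lipids of cell membranes. It is best known from photoreceptors and other nervous tissue, and its close relative evectin-2, encoded by Plekhb2, works in traffic through recycling endosomes. In the RefSeq annotation of assembly GRCr8, Plekhb1 lies on the minus strand and overlaps Rab6a, which is read from the plus strand and encodes a GTPase of Golgi traffic. The counts were made on another build, rn6, and their strand setting is not given in the sources used here. If strand was not used, reads from the shared stretch cannot be told apart and Plekhb1 and Rab6a levels are uncertain.

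The promoter is shown because the finding is about how much transcript of this gene was present. It runs from 250 bases before to 50 bases after the RefSeq start of Plekhb1, at chr1:164425123-164425422 of GRCr8 on the minus strand, and is the reference sequence (BN rat), not that of WKY or F344. Capitals mark the single match to the GC box GGGCGG, searched on both strands, with no overlap with the other motifs.
Plekhb1: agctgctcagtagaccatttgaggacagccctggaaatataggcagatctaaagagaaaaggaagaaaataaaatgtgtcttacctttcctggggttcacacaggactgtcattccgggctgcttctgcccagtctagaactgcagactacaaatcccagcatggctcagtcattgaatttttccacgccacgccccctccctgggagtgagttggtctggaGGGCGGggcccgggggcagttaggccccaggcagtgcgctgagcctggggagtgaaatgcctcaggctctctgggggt
The GC box occurs in 33.1% of the 33469 RefSeq rat promoters of this length. The window holds no CCAAT and no TATAAA on either strand, motifs found in 37.5% and 14.2% of promoters. Its GC content is 55.0%, against a median of 51.7%, and it holds 6 CpG sites, against a median of 7. These are descriptions of the reference letters, and no deposited value measures the promoter.

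Genes received 1691956 to 3846263 counts per library, but the 3 most abundant features took 88.9% to 94.6% of them, which left 90796 to 419789 counts for all other genes. CPM are counts relative to library size, here scaled by TMM (trimmed mean of M values), and 1 count was worth 0.201 to 1.13 CPM. F344 NS replicates 2 and 3 had TMM factors of 0.625 and 0.521, the lowest of the 12, and are named wherever a Plekhb1 value rests on them. Outside those features they held 195564 and 90796 counts, and WKY NS replicate 3 held 170507. The tissue label was compared with blood markers: the 11 red cell genes in the table summed to 20808 to 42532 CPM over the 12 libraries, while the 13 neural and retinal genes summed to 8.27 to 14.6 CPM. Gfap, an astrocyte gene, had 8 counts in all 12 libraries together.

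Plekhb1 had 0, 1 and 6 counts in WKY CRS replicates 1, 2 and 3, and 7, 6 and 6 counts in WKY NS replicates 1, 2 and 3. It had 107, 58 and 88 counts in F344 CRS replicates and 59, 55 and 24 counts in F344 NS replicates. The shallowest library of the series, F344 NS replicate 3, thus held 24 counts, more than any of the 6 WKY libraries, which were all deeper. On the scaled level this was 0, 0.431 and 1.96 CPM after CRS and 1.60, 1.95 and 2.31 CPM without stress in WKY. In F344 it was 21.5, 19.7 and 17.7 CPM after CRS and 16.2, 33.4 and 27.2 CPM without stress. Every WKY library lay below every F344 library, with 2.31 CPM the highest in WKY and 16.2 CPM the lowest in F344. All 6 WKY libraries lay below all 6 F344 libraries for 26 of the 2781 genes tested, or 0.935%, and 65, or 2.34%, did not overlap in either direction; Plekhb1 was chosen for being so placed.

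**Figure D1:**
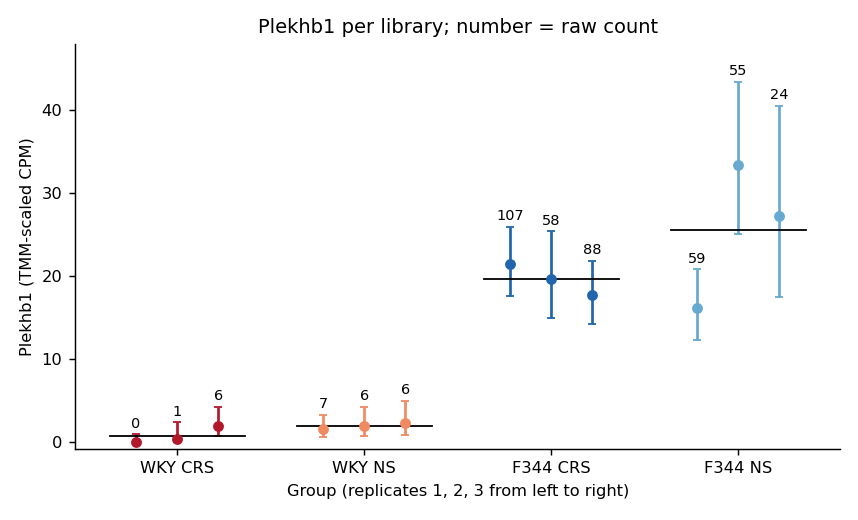
Plekhb1 in each of the 12 libraries, in TMM-scaled CPM on the vertical axis, by group on the horizontal axis; bars are exact Poisson 95% counting intervals, horizontal lines are group means and numbers are raw counts. The 6 WKY libraries sit between 0 and 2.31 CPM and the 6 F344 libraries between 16.2 and 33.4 CPM.

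In order of level, Plekhb1 averaged 0.797 ± 1.03 CPM (SD, n = 3) in WKY CRS, 1.95 ± 0.352 in WKY NS, 19.6 ± 1.86 in F344 CRS and 25.6 ± 8.72 in F344 NS. Neighbouring groups of the same strain overlapped, so their order was not set apart from the spread between libraries. The fitted log2 fold change of WKY over F344 was -4.62 (SE 0.513) after CRS and -3.68 (SE 0.449) without stress. Both were the second lowest of 2781 genes, after Park2, in contrasts where edgeR called 20 (0.719%) and 10 (0.36%) of all genes lower in WKY. In summed counts, 7 in WKY CRS stood against 253 in F344 CRS, a scaled ratio of 0.0383 (95% counting interval 0.0152 to 0.0800). Without stress, 19 in WKY NS stood against 138 in F344 NS, a ratio of 0.0847 (95% counting interval 0.0495 to 0.137). These intervals cover counting error only. Leaving out F344 NS replicates 2 and 3 moved the fitted difference without stress to -3.01, with 1 F344 NS library left.

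WKY blood was not wholly without Plekhb1 counts. Of the 6 WKY libraries, 5 held at least 1 count, and WKY NS replicates 1, 2 and 3 had counting intervals of 0.644 to 3.30, 0.717 to 4.25 and 0.846 to 5.02 CPM. The 0 counts in WKY CRS replicate 1 allow a level of up to 0.760 CPM, the worth of 3 counts there, while the exact interval used for the other libraries ends at 0.935 CPM. As CPM of what remained once the 3 top features were removed, with no TMM, Plekhb1 stood at 0 to 35.2 in WKY and 206 to 310.0 in F344, so the strain gap was also present without TMM scaling.

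Plekhb1 was chosen for its strain difference, and the low WKY CRS counts were part of that difference. Restraint values that use the WKY libraries are therefore not independent of the choice. The gene also passed the count filter through its F344 libraries, since in a fit of the WKY groups alone it failed. In WKY, where the gene had 7 counts over the CRS libraries and 19 over the NS libraries, the log2 fold change of CRS over NS was -1.29 (SE 0.681; edgeR quasi-likelihood test, unadjusted p = 0.0668, adjusted p = 0.913 over 2781 genes). The ratio of summed counts was 0.397 (95% counting interval 0.141 to 0.986). WKY CRS replicates 1 and 2 were lower than every WKY NS library, and replicate 3, at 1.96 CPM, lay within the NS range of 1.60 to 2.31 CPM. Without WKY CRS replicate 3 the log2 fold change was -3.27 (adjusted p = 0.326), and without WKY CRS replicate 1 it was -0.55 (adjusted p = 0.913). An exact two-sided permutation test of log2(CPM + 0.5) gave p = 0.3, where 3 libraries against 3 cannot go below 0.1.

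In F344 the groups overlapped, at 17.7 to 21.5 CPM after CRS and 16.2 to 33.4 CPM without stress. The log2 fold change of CRS over NS was -0.34 (SE 0.348; edgeR adjusted p = 0.996), with a two-sided exact permutation p of 0.4. Its sign differed between settings, and why was not tested. Without F344 NS replicates 2 and 3, which had the lowest TMM factors, it was 0.35. Without replicate 2 alone it was -0.02, and without replicate 3 alone it was -0.26. The first of these leaves 1 F344 NS library, which is assumed to vary like the libraries of the other groups. With library totals in place of TMM it was 0.32, where the median of all tested genes moved to 0.50, which left Plekhb1 0.18 below that median. The value was 0.06 with no low count filter. No direction of a restraint effect in F344 can be given from these libraries.

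Averaged over both strains, CRS over NS gave a log2 fold change of -0.81 (SE 0.382; edgeR unadjusted p = 0.0400, adjusted p = 0.680), and Plekhb1 did not pass. The exact two-sided permutation test within strains gave p = 0.08, with 0.005 the smallest p its 400 arrangements allow. Without WKY CRS replicate 3 the value was -1.80 (adjusted p = 0.246), and without WKY CRS replicate 1 it was -0.44 (adjusted p = 0.873). The difference between the responses, WKY minus F344, was -0.94 (SE 0.760; edgeR adjusted p = 0.993). Without WKY CRS replicate 3 it was -2.95 (adjusted p = 0.999), and without WKY CRS replicate 1 it was -0.23. Across all 2781 genes, edgeR called 0 (0%) for CRS in F344, where 131 (4.71%) had an unadjusted p under 0.05, DESeq2 called 0 and limma-voom 2. For CRS in WKY, edgeR called 0 (0%), 161 (5.79%) fell under 0.05 before adjustment, and DESeq2 and limma-voom called 0. The mean of strains gave 1 call (0.036%), with 195 (7.01%) under 0.05 before adjustment, and the difference of responses gave 0, with 106 (3.81%); DESeq2 and limma-voom called 0 for that difference.

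**Figure D2:**
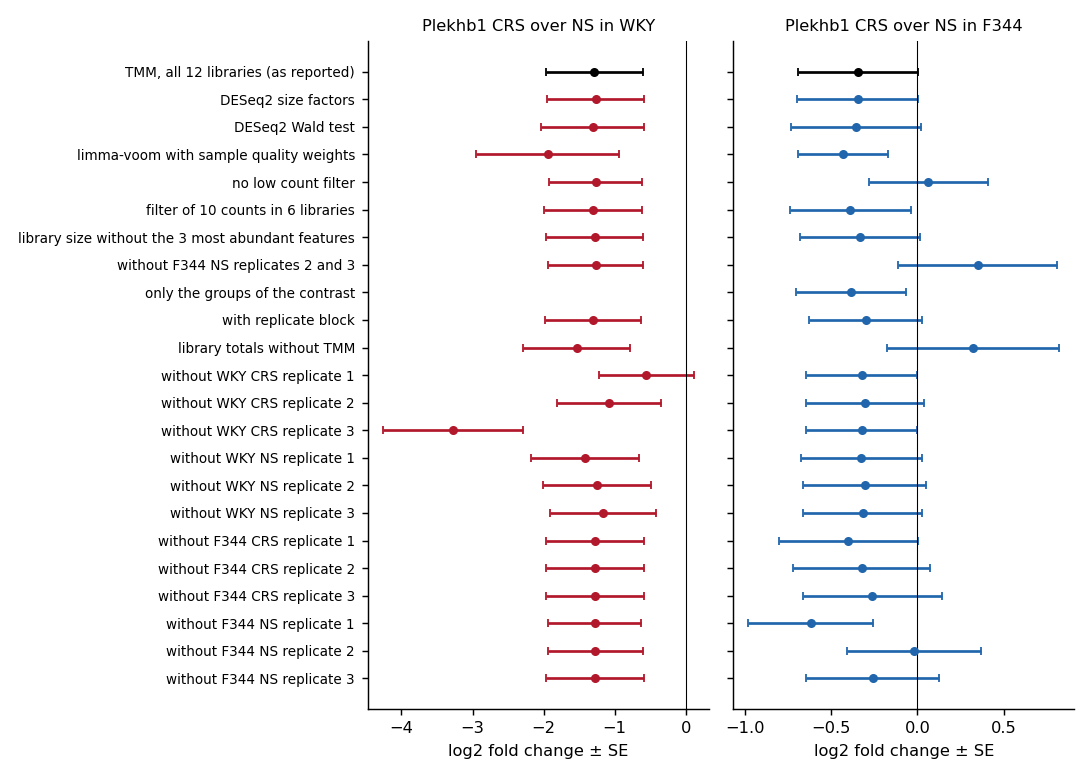
Log2 fold change of Plekhb1, CRS over NS, with its SE (horizontal axes), in WKY on the left and F344 on the right, as reported (black) and under each alternative (rows). In WKY all values are negative, from -3.27 to -0.55, while in F344 they run from -0.62 to 0.35 and cross 0.

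The genes around Plekhb1 were compared next, to show whether the low level in WKY was shared along the chromosome. Of the 10 nearest counted genes on each side in annotation order, 19 of 20 had at least 1 count and 6 passed the filter on low counts. Rab6a, the gene that overlaps Plekhb1, had 18, 9 and 14 counts in WKY CRS and 11, 16 and 11 in WKY NS. It had 15, 9 and 17 counts in F344 CRS and 17, 11 and 4 in F344 NS. In CPM, Rab6a ran from 3.88 to 4.57 in WKY CRS, 2.52 to 5.21 in WKY NS, 3.01 to 3.43 in F344 CRS and 4.54 to 6.67 in F344 NS. Its F344 CRS libraries thus lay below those of F344 NS and WKY CRS, while over both conditions the strains overlapped. The share of all genes so placed was not counted. For CRS over NS in F344, Rab6a stood at log2 -0.72 (edgeR unadjusted p = 0.0940, adjusted p = 0.940). The summed ratio of WKY over F344 was 1.07 (95% counting interval 0.765 to 1.49). The fitted log2 fold change of Rab6a was 0.46 (SE 0.398; edgeR adjusted p = 0.733) after CRS and -0.44 (SE 0.424; adjusted p = 0.838) without stress. The share of all reads recorded as ambiguous between features was 78.3% to 83.6% in WKY libraries and 80.4% to 83.3% in F344 libraries, so the strains overlapped. This share covers all features, and it cannot show how reads of Plekhb1 and Rab6a were assigned.

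Of the other nearest genes, Mrpl48, a mitochondrial ribosomal protein gene, had 3 counts in WKY and 3 in F344. Coa4, a cytochrome oxidase assembly factor, had 2 in WKY and 10 in F344. On the other side Fam168a had 17 and 28, and Relt, a TNF receptor family gene, had 44 and 46. Mir3102 had 0 and 1. None of these passed the filter, so they were not tested. Among the 6 tested neighbours edgeR called 0 in either strain contrast, as did DESeq2 and limma-voom, and 2 and 0 had an unadjusted p under 0.05 after CRS and without stress. Over all genes edgeR called 1.4% after CRS and 0.683% without stress, and 11% and 9.35% had an unadjusted p under 0.05.

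The 2 tested neighbours with the smallest p after CRS were Pde2a, a cyclic nucleotide phosphodiesterase, and Fchsd2, a membrane-bending adaptor. Pde2a averaged 5.67 ± 2.00 CPM in WKY CRS and 11.5 ± 1.82 in F344 CRS (SD, n = 3; log2 -0.97, edgeR adjusted p = 0.188). Without stress it averaged 6.85 ± 0.314 CPM in WKY and 11.2 ± 2.87 in F344 (log2 -0.71, edgeR adjusted p = 0.537). Fchsd2 stood at log2 -1.05 after CRS (edgeR adjusted p = 0.341) and 0.55 without stress. C2cd3, a centriole gene, stood at log2 -0.72 without stress (edgeR adjusted p = 0.779). The median over the 6 was -0.74 after CRS and -0.33 without stress, beside 0.00 and -0.01 over all tested genes. Counting intervals of the summed ratio held 1 for 14 of the 19 neighbours with counts and lay below 1 for 5 (C2cd3, Ucp2, Coa4, Atg16l2 and Pde2a). These intervals cover counting error only and leave out the spread between libraries, and the share of all genes below 1 was not counted. Ucp2, a mitochondrial carrier gene with 2635 counts in WKY and 3113 in F344, had a ratio of 0.833. Its edgeR adjusted p between strains was 0.899 after CRS and 0.927 without stress. The 16 neighbours with over 10 counts in all had ratios of 0.197 to 1.97. Plekhb1, chosen for its low ratio, had an interval ending at 0.0974, and the intervals of Coa4 (from 0.0210) and P4ha3 (from 0.0902) reached into it.

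**Figure D3:**
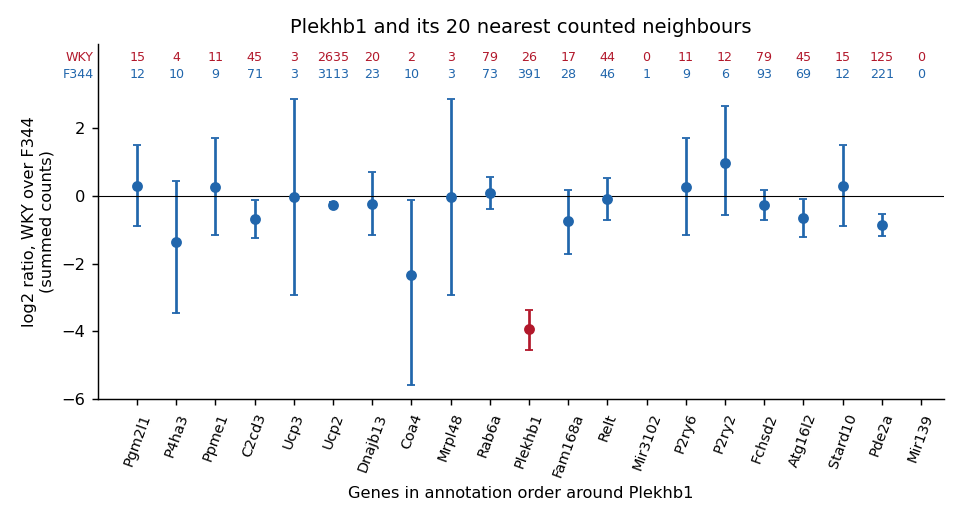
Log2 ratio of scaled summed counts, WKY over F344 (vertical axis), for Plekhb1 (red) and its 20 nearest counted neighbours in annotation order, with 95% counting intervals; numbers are summed raw counts of each strain, and no point is drawn where WKY had 0. Plekhb1, with 26 counts in WKY and 391 in F344, lies at -3.93, and Rab6a beside it at 0.09.

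The closest relative, Plekhb2, had 5, 2 and 5 counts in WKY CRS and 9, 3 and 5 in WKY NS, against 11, 6 and 5 in F344 CRS and 5, 1 and 2 in F344 NS. The strains overlapped, with 29 counts in WKY and 30 in F344 and a ratio of 0.952 (95% counting interval 0.551 to 1.64). Plekhb2 did not pass the filter on low counts. Of 29 further genes named for the same domain (Plekha1 to Plekhs1), 22 were in the table and 4 passed the filter: Plekho1, Plekhj1, Plekhm1 and Plekhg2. edgeR called 0 of the 4 between strains, after CRS or without stress, with 0 under 0.05 before adjustment, and DESeq2 and limma-voom called 0. Over all genes edgeR called 1.4% after CRS and 0.683% without stress, and 11% and 9.35% had an unadjusted p under 0.05. So few genes cannot set the family apart from these shares. The log2 differences of the 4 ranged from -0.66 to 0.12 after CRS and from -0.56 to 0.25 without stress. Plekho1, whose product binds casein kinase, averaged 8.09 ± 4.66 CPM in WKY CRS and 12.3 ± 2.91 in F344 CRS (SD, n = 3; edgeR adjusted p = 0.509). For CRS over NS, averaged over strains, Plekho1 stood at log2 0.66 (edgeR adjusted p = 0.583), and 0 of the 4 passed. It was the 1 of 4 with an unadjusted p under 0.05, beside 7.01% of all genes.

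Genes of post-Golgi and recycling traffic, the pathway in which evectins and Rab6a work, were compared as a list of 36, of which 32 were in the table and 16 passed the filter. edgeR called 0 of the 16 between strains, beside 1.4% of all genes after CRS and 0.683% without stress. DESeq2 and limma-voom also called 0 of the 16. In edgeR 0 of them after CRS and 2 without stress had an unadjusted p under 0.05, beside 11% and 9.35% of all genes. The median log2 difference was -0.01 after CRS and -0.25 without stress. The 2 with the smallest p without stress were Ehd1, a recycling endosome ATPase, and Bicd2, a Rab6-binding motor adaptor. Ehd1 averaged 0.835 ± 0.399 CPM in WKY NS and 3.73 ± 0.767 in F344 NS (SD, n = 3; log2 -1.95, edgeR adjusted p = 0.220). Bicd2 stood at 4.45 ± 0.478 and 1.63 ± 1.41 CPM in WKY NS and F344 NS (log2 1.11, edgeR adjusted p = 0.441). After CRS they were the tethering subunits Vps52 (log2 -0.68, edgeR adjusted p = 0.515) and Vps54 (log2 0.66). For CRS over NS, 0 of the 16 passed in edgeR, in either strain or on average. At an unadjusted p under 0.05 stood 0 in F344, 2 in WKY and 1 on average, beside 4.71%, 5.79% and 7.01% of all genes. Ehd1 stood at log2 1.74 in WKY (edgeR adjusted p = 0.787).

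**Figure D4:**
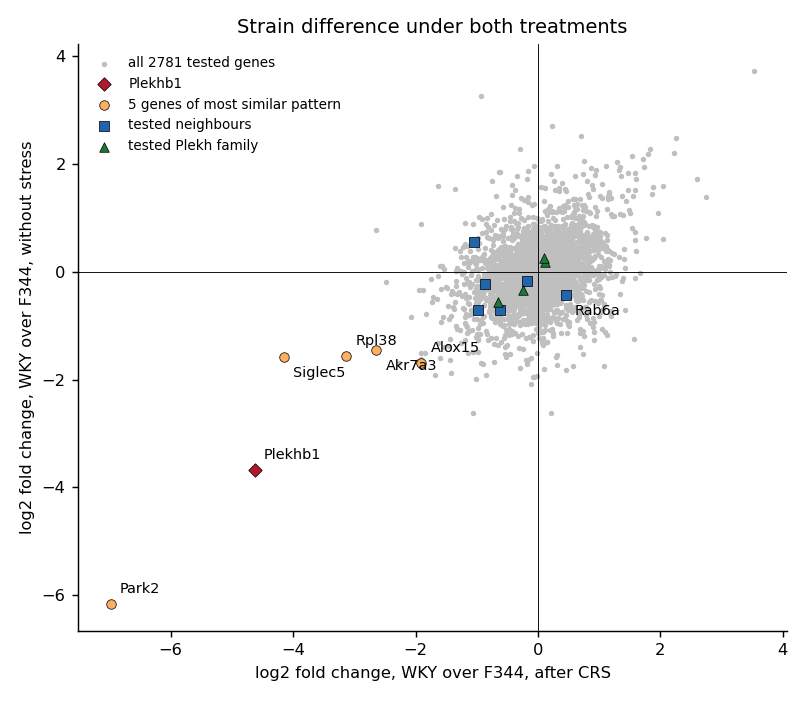
Log2 fold change of WKY over F344 after CRS (horizontal axis) and without stress (vertical axis) for the 2781 tested genes (grey), with Plekhb1, the 5 genes of most similar pattern, 6 neighbours and 4 Plekh family genes marked. Plekhb1 lies at -4.62 and -3.68, while the 6 tested neighbours lie between -1.05 and 0.46 after CRS and between -0.72 and 0.55 without stress.

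Likeness to Plekhb1 was measured as the root mean square difference of log2 CPM over the 12 libraries, each gene centred on its own mean. The 5 genes with the smallest values were Park2, Siglec5, Rpl38, Akr7a3 and Alox15, at 0.845 to 1.22, against a median of 2.02 over 2780 genes. They were chosen by their pattern over all 12 libraries, strain and restraint included, so their values are given without a test. Park2, which encodes the ubiquitin ligase parkin, had 0, 0 and 1 counts in WKY CRS and 0, 1 and 0 in WKY NS. It had 108, 57 and 72 counts in F344 CRS and 33, 9 and 16 in F344 NS. Every WKY library was at or near 0, a ratio of summed counts of 0.00667 (95% counting interval 0.000805 to 0.0243). Siglec5, a sialic acid-binding lectin, had 1, 0 and 1 counts in WKY CRS and 5, 8 and 2 in WKY NS, against 28, 13 and 16 in F344 CRS and 18, 8 and 3 in F344 NS. In WKY its CRS libraries, at 0 or 1 count, were all below its NS libraries, but the pattern within WKY was part of the choice. The share of all genes so placed was not counted.

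Alox15, an arachidonate lipoxygenase, averaged 40.6 ± 12.1 CPM in WKY CRS and 41.0 ± 4.49 in WKY NS, against 152 ± 7.92 in F344 CRS and 133 ± 59.3 in F344 NS (SD, n = 3). Akr7a3, an aldo-keto reductase, averaged 0.877 ± 0.761 and 1.62 ± 0.299 CPM in WKY CRS and NS, against 5.09 ± 1.82 and 4.87 ± 1.71 in F344 CRS and NS. Rpl38, a ribosomal protein gene with many processed copies and therefore uncertain, had 20 counts in WKY and 106 in F344. With a prior count of 0.5, or with library totals in place of TMM, 4 of these 5 genes were again among the nearest 5. Alox15 then ranked 11 and 6.

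**Figure D5:**
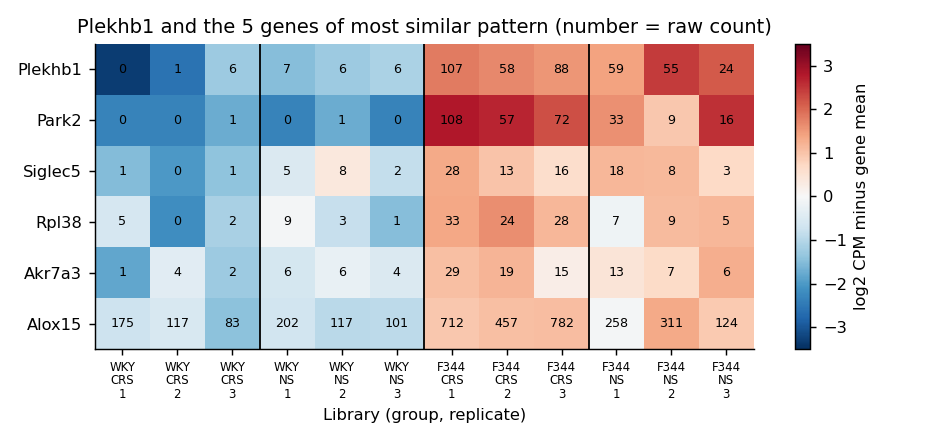
Log2 CPM minus the gene's own mean (colour scale) in each of the 12 libraries (columns, by group and replicate) for Plekhb1 and the 5 genes of most similar pattern (rows); numbers are raw counts. Plekhb1 and Park2 show 0 to 7 counts in WKY columns and 9 to 108 in F344 columns, while Alox15 keeps 83 to 202 counts in WKY.

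Blood cell markers were summed per library beside Plekhb1, since fewer cells of a type and less RNA per cell cannot be told apart in whole blood. The 16 T cell genes summed to 45.7 to 56.5 CPM in WKY CRS and 46.9 to 57.6 in WKY NS. In F344 they summed to 64.8 to 76.8 CPM after CRS and 63.1 to 78.3 without stress. The sum was thus lower in every WKY library, but not each gene. For WKY over F344, 1 of the 12 tested T cell genes had a positive log2 value after CRS and 11 a negative one. Without stress 3 were positive and 9 negative. The 9 monocyte genes summed to 126 to 174 CPM in WKY CRS, 123 to 143 in WKY NS, 80.7 to 92.3 in F344 CRS and 67.9 to 77.3 in F344 NS, so the sum was higher in every WKY library. Lyz2, a lysozyme gene, held 3207 of these counts over the 12 libraries, more than the other 8 genes together. Of the tested members, Csf1r stood at log2 0.07 after CRS and 0.97 without stress, and Fcgr1a at -0.06 and -0.79. The part of either list in the level of Plekhb1 was not tested. Of 12 tested T cell genes edgeR called 0 between strains, with 3 after CRS and 4 without stress at an unadjusted p under 0.05, beside 11% and 9.35% of all genes. Cybb, an NADPH oxidase subunit, was the 1 of 6 monocyte genes called (log2 1.88 after CRS, SE 0.426, edgeR adjusted p = 0.0115), beside 1.4% of all genes called.

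The other marker lists overlapped between strains in their sums over both conditions. Red cell genes summed to 35625 to 38474 CPM in WKY CRS, above the 20808 to 26755 of WKY NS. In F344 they overlapped, at 26022 to 42532 CPM after CRS and 20994 to 36127 without stress. The globin gene Hbb held 1119003 of these counts, more than the other red cell genes together. For CRS over NS edgeR called 0 of the 10 tested red cell genes in WKY. Between strains it called 1 of the 10, the globin gene Hbb-b1, beside 1.4% of all genes after CRS and 0.683% without stress. Hbb-b1 stood at log2 -1.85 after CRS (edgeR adjusted p = 0.00116) and -1.50 without stress (edgeR adjusted p = 0.0200). Its reads can be shared with near-identical globin copies, so its value is uncertain. Natural killer and cytotoxic genes summed to 12.5 to 26.1 CPM in WKY and 11.2 to 19.6 in F344, and B cell genes to 21.5 to 33.2 and 20.4 to 32.6. Neutrophil genes summed to 44.9 to 66.1 CPM in WKY and 30.6 to 52.3 in F344, with overlap also within each condition. Platelet genes summed to 104 to 175 CPM in WKY CRS, 58.4 to 120 in WKY NS, 86.1 to 98.0 in F344 CRS and 44.3 to 71.0 in F344 NS. WKY CRS thus lay above F344 CRS, and F344 CRS above F344 NS. For CRS over NS, 8 of 8 tested platelet genes had a positive log2 value in each strain, where the median of all tested genes was 0.02 in WKY and 0.01 in F344. edgeR called 0 of the 8. An unadjusted p under 0.05 was seen for 1 in WKY and 3 in F344, beside 5.79% and 4.71% of all genes. Of the platelet counts, F344 NS replicates 2 and 3 held 75 and 39, and replicate 1 held 259. The neural and retinal genes, markers of the tissues in which Plekhb1 is best known, summed to 8.79 to 13.4 CPM in WKY and 8.27 to 14.6 in F344. Of the retinal genes, Gnat1 and Rcvrn had 2 counts each in all libraries together, and of the neural genes Mog had 3.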

How the data were processed

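Whole blood collected into PAXgene tubes was sequenced on Ion Proton libraries, per the labels' protocols. The authors deposited raw counts per gene for each library. Build rn6 and the tools TopHat2 2.1.0, cutadapt 1.14 and Cufflinks 2.2.1 appear in the submitters' processing notes. Which counter and annotation were used, and whether strand was, is not given in the sources used here. RefSeq tables of GRCr8 gave gene order, names and the promoter (1 of 1 gene matched); its coordinates also gave the strands and overlap of Plekhb1 and Rab6a. The 5 rows that name no gene held 80.9% to 86.6% of all counts and stayed out of library sizes and tests.

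Testing used the quasi-likelihood functions of edgeR 4.0.16 (glmQLFit, glmQLFTest) with TMM scaling, under R 4.3.3. The filter filterByExpr, minimum count 10, kept 2781 genes. One fit of 4 group means held all 12 libraries, and p-values were adjusted over all genes (Benjamini-Hochberg, threshold 0.05). SE came from the fold change and F statistic. The step was tested on simulated counts. DESeq2 1.42.0 and limma-voom (limma 3.58.1) were alternatives. None of the 12 pairs of libraries within groups agreed within sampling noise. Counting intervals are exact (95%).

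The gene, lists and rules were chosen with earlier results of these data known. Named genes were Plekhb2, Rab6a, the 3 nearest counted genes a side, the 5 most similar in pattern, and list members past the threshold or otherwise the 2 with the smallest p. Ucp2, Atg16l2, Ehd2, P4ha3, the blood genes Cybb, Lyz2, Csf1r, Fcgr1a and Hbb-b1 and the neural and retinal genes were named after their values were seen. The prior count for likeness was 2.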

Additional observations from a re-analysis of the deposited data

How the results depend on the processing

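Plekhb1 stayed lower in WKY than in F344 under every alternative run. Its log2 difference after CRS was -5.25 with limma-voom and -6.61 to -3.89 with single libraries left out, the ends being without WKY CRS replicates 3 and 1. Without stress it was -3.01 without F344 NS replicates 2 and 3 and -3.96 to -3.37 with single libraries left out. The restraint value in F344 turned sign with no low count filter (0.0623), without F344 NS replicates 2 and 3 (0.35, with 1 library left in that group) and, chosen after seeing the data, with library totals (0.32); the cause was not tested. With single libraries left out it was -0.62 to -0.02, in WKY -3.27 to -0.55, on average -1.80 to -0.44, and the difference of responses -2.95 to -0.23. None of these restraint values passed under any alternative, the lowest adjusted p being 0.246. A fit of the WKY groups alone gave no value, since Plekhb1 then failed the count filter. Library totals moved the median of all genes by -0.39 after CRS and 0.31 without stress in the strain contrasts.

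Of the traffic genes, 1 was called after CRS with no filter and 1 without F344 NS replicates 2 and 3, in both cases Ehd2 (log2 3.46 and 3.58). Called genes between strains, 39 after CRS and 19 without stress, were 13 and 8 with library totals, and without stress 5 without F344 NS replicates 2 and 3 and 9 in a fit of those groups alone. With single libraries left out they were 18 to 46 and 5 to 44. For restraint in F344, in WKY, on average and for the difference of responses, they were 5, 8, 6 and 3 with no low count filter, and 0 to 5 under the other alternatives run.

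Replicate numbers were not taken to pair the libraries, since not every same-numbered pair correlated over 0.1: they correlated from -0.09 to 0.20, with 4 of 18 pairs over 0.1. As a hint of pairing from the data, 8 of 12 libraries correlated best with their own number. With a replicate block the restraint values were -0.30 in F344 and -1.31 in WKY (edgeR adjusted p = 0.946 and 0.812), and 42 and 25 genes were called between strains. Depth limits the WKY values, which rest on 0 to 7 counts a library.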
